A study of Mus musculus with 8 samples.

Results

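The actin-binding proteins of stress fibres were followed as a set of 9 genes, chosen by symbol: the tropomyosins Tpm1, Tpm2, Tpm3 and Tpm4, the alpha-actinins Actn1 and Actn4, the filamin Flna, the palladin gene Palld and the PDZ and LIM domain gene Pdlim7. They are 9 of the 22274 genes in the deposited count table, and all 9 were among the 13533 genes with enough reads to be tested. The RNA came from primary cardiac fibroblasts, the cells that lay down cardiac matrix, which were cultured from mice and exposed in both groups to TGF-β, a cytokine that turns fibroblasts into contractile myofibroblasts. Libraries labelled GFP (n = 4) received the empty GFP vector, and those labelled OEIRF7 (n = 4) received a virus for overexpression of IRF7, an interferon regulatory transcription factor. The submitted design text names an adeno-associated virus and the study's methods name an adenovirus whose insert is the human IRF7 coding sequence with FLAG and EGFP. There was no group without TGF-β or without virus, so each difference below lies between cells that all carried a vector and all received the cytokine. The age, sex and genotype of the mice behind each library are not given in the labels, and nothing in them says that the 4 libraries of a group came from separate animals or cultures, while the legend for this experiment speaks of 3 biological replicates where 4 libraries per group were deposited. Which libraries are biological replicates is thus not settled, and the p-values measure the spread between these libraries, which may in part be technical.

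Stress fibres are bundles of actin filaments and non-muscle myosin II that run between focal adhesions and let a fibroblast pull on its surroundings. Tropomyosins lie along the filament and set which myosins and severing proteins can reach it, alpha-actinins cross-link filaments in the dense bodies that alternate with myosin, filamin joins filaments at angles and ties them to the membrane, and palladin and the PDZ and LIM domain proteins are scaffolds that bind alpha-actinin or tropomyosin. In activated cardiac fibroblasts these bundles thicken and incorporate smooth muscle actin. Many genes of this system are known to be driven by serum response factor with its MRTF partners, through the CArG box, and by TEAD factors with YAP or TAZ, through the MCAT motif with the core CATTCC.

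The sequence before the transcription start is shown for the member that fell most (Tpm2), a close relative that fell less (Tpm1), the member that was not called (Tpm3, with both of its starts) and the most abundantly counted member (Flna), because these genes carry the contrasts described below. Each run is the 250 bases upstream of a start, 5′ to 3′ on the strand of the gene, taken from RefSeq (GRCm38.p6). All 9 members had an entry, with 12 starts among them. Capitals mark CATTCC on either strand and any stretch of 10 bases that differs from a CArG box at no more than 1 base.
Tpm1, chr9:67049214-67049463, minus strand: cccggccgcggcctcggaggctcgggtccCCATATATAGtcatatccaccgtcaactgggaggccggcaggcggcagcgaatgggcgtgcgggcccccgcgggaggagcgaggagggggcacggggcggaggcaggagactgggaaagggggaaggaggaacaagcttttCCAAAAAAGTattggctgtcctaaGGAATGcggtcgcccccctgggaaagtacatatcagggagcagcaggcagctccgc
Tpm2, chr4:43523555-43523804, minus strand: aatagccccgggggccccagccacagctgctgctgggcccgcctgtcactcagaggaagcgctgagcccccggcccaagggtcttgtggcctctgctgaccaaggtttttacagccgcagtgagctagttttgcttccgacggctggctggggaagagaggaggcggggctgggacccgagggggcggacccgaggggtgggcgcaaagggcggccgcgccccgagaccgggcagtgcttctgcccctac
Tpm3, upstream start, chr3:90072401-90072650, plus strand: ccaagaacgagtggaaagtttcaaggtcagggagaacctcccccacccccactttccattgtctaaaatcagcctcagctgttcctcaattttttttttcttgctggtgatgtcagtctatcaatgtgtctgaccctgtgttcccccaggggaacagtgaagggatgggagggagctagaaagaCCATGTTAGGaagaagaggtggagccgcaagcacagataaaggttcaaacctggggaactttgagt
Tpm3, downstream start, chr3:90079271-90079520, plus strand: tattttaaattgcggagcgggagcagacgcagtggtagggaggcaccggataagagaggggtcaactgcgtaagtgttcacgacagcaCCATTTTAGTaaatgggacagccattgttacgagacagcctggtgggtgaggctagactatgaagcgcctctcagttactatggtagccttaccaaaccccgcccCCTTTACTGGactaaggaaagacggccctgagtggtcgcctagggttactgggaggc
Flna, chrX:74246535-74246784, minus strand: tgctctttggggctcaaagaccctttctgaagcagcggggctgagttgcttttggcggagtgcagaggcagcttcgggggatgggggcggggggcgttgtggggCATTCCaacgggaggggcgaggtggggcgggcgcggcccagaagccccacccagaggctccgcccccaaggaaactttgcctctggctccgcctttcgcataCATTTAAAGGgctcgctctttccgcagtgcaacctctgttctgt

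In the window of 250 bases before to 50 after a start, no member promoter of the 12 held an exact CArG box, against 1.63% of all 32851 promoters. CATTCC on either strand was present in 4 of the 12, those of Actn4, Flna, Palld and Tpm1, against 14.7% of all promoters. In the printed runs it begins 56 bases upstream of the Tpm1 start, read on the opposite strand, and 146 bases upstream of the Flna start. A CArG box with at most 1 base different, a looser form that was added after the sequences had been seen, occurred in 5 of the 12 (Flna, Palld, Tpm1 and both Tpm3 starts) against 21.1% of all promoters. The printed Tpm2 run, from the gene with the largest fall, carried neither form, while both starts of Tpm3, which was not called, carried the looser one. The interferon-stimulated response element, to which interferon regulatory factors bind, was in 0 of the 12 against 0.819% of all promoters, and its shorter core without the last base, which every such element contains, was in 0 of the 12 against 3.44%. These are matches of letters within short windows and say nothing of binding.

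Sequencing depth was even, with 24888589 to 27095611 counted reads in the GFP libraries and 24454801 to 28658826 in the OEIRF7 libraries, so every member was measured with at least 763 reads in each library. Counts of mouse Irf7 fell in the libraries labelled OEIRF7, from between 2272 and 3680 reads to between 380 and 421 (log2 fold change -2.96, SE 0.12, adjusted p = 7.7e-11, edgeR). The study's reagent list names an adenovirus with a human IRF7 insert. It also names an adeno-associated virus with a mouse Irf7 insert, which the study describes injecting into mice. With the human insert, the mouse counts show the cells' own gene and do not check the labels. With the mouse insert, reads of the vector could count towards Irf7, and the fall would then go against the labels. The sources differ on the virus, so this was not settled, and the directions below follow the labels. Of the marker lists, that of fibroblasts had the highest summed level in every library. It was 13943 to 14276 CPM with GFP and 13318 to 14052 CPM with OEIRF7, and of the 8 genes 4 were lower and 2 higher. CPM are reads of a gene scaled to a common library size, with TMM factors for single genes and without them for marker sums. The fibroblast sum is mostly Col1a1, Col1a2, Postn and Vim, and such sums do not measure the share of each cell type. Within the list Tcf21, a factor of resting fibroblasts, fell from 58.3 ± 6.13 to 23.1 ± 3.49 CPM (log2 fold change -1.33). Postn, a marker of activated ones, fell from 2631 ± 93.2 to 2018 ± 94.1 CPM (-0.38). Col1a1 and Lum were also lower (-0.16 and -0.35), Pdgfra and Vim were higher (0.25 and 0.22), and Col1a2 and Dcn were not called. Of the cardiomyocyte markers, 7 of 9, among them Myh6, Myh7, Tnni3 and Nppa, had at most 10 reads in any library, but Tnnt2, the only marker of this list that could be tested, had 248 to 331 reads with GFP and 175 to 231 with OEIRF7 (log2 fold change -0.54, adjusted p = 0.00057, edgeR). Smooth muscle and mural markers summed to 124 to 137 CPM and 109 to 132 CPM, with 3 higher and 3 lower of 7 tested. Macrophage markers stood at 253 to 303 CPM in GFP and 325 to 358 CPM in OEIRF7, with 4 higher and 0 lower of 6. Epicardial markers went from 65.6 to 84.2 CPM with GFP to 40.4 to 47.7 CPM with OEIRF7, with 1 higher and 1 lower of 4. That fall lay in Upk3b, from 51.8 ± 7.24 to 20.8 ± 2.45 CPM (log2 fold change -1.32), while Msln was higher (0.19) and Wt1 and Upk1b were not called. Endothelial markers stood at 207 to 217 CPM and 207 to 237 CPM, with 2 higher and 1 lower of 6. The part of these shifts in the values below was not tested, and in such bulk RNA fewer cells of a type and less RNA per cell cannot be told apart.

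The first question was whether the stress fibre genes differ between TGF-β-treated fibroblasts with and without the IRF7 vector. All members but Tpm3, 8 of 9, were lower in the OEIRF7 libraries at an adjusted p under 0.05 (edgeR quasi-likelihood test, Benjamini-Hochberg over the 13533 genes), and 0 were higher. Of all tested genes 29.9% were called lower and 29% were called higher, so a call in itself was common in this comparison. The members were chosen with earlier results of these data known, so their excess over these shares is not independent evidence of a change. For the same 8 genes the groups did not overlap, every OEIRF7 library lying under every GFP library in CPM, as was the case for 27% of tested genes in this direction and 26.8% in the other. The falls were small. The median log2 fold change of the 9 members was -0.33, against 0.00 for all tested genes (quartiles -0.26 and 0.24), and at the study's size rule, an unadjusted p under 0.05 with a fold over 1.5 or under 0.66, only Tpm2 was past the line. That rule was met by 9.56% of tested genes downwards and 9.47% upwards.

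**Figure D1:**
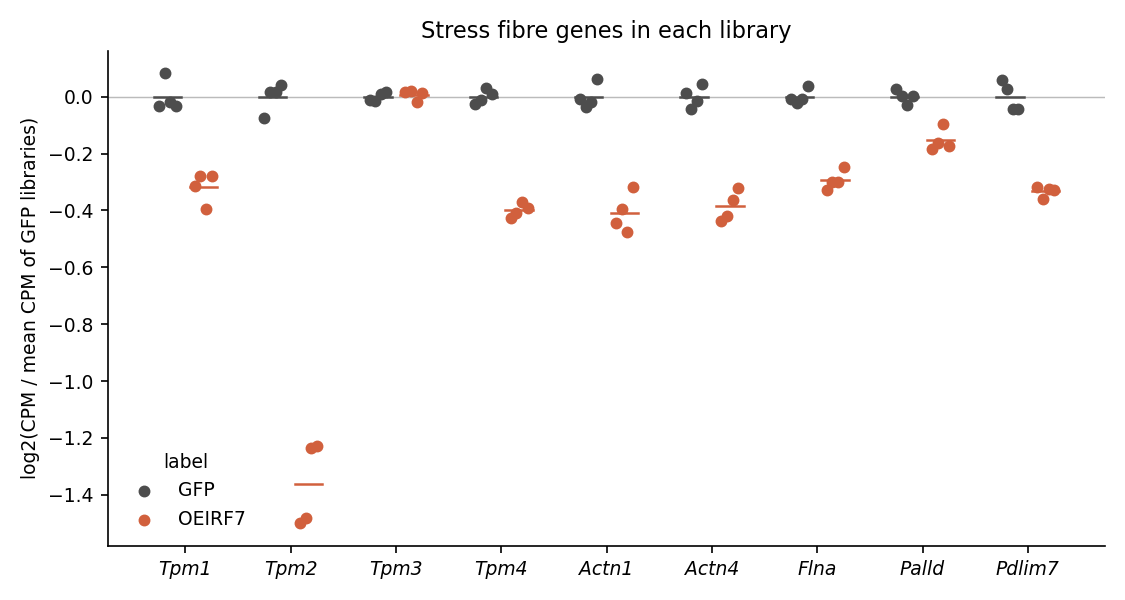
Level of each member in each of the 8 libraries, as the log2 ratio of its CPM to the mean CPM of the 4 GFP libraries (grey points GFP, orange points OEIRF7, bars the mean of the points). Tpm2 lies lowest with OEIRF7, Tpm3 is level in both groups, and the other 7 genes shift down by between 0.15 and 0.41 on this scale.

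Tpm2, which encodes beta-tropomyosin, a form typical of smooth and skeletal muscle, showed the largest change. Its level was 79.3, 84.6, 84.6 and 86.0 CPM in GFP libraries 1 to 4, and 29.6, 29.9, 35.5 and 35.7 CPM in OEIRF7 libraries 1 to 4. The groups were far apart, although OEIRF7 libraries 1 and 2 lay somewhat under libraries 3 and 4. The mean fell from 83.7 ± 2.95 to 32.7 ± 3.39 CPM (SD, n = 4 each), so the level fell by 61.0% (log2 fold change -1.36, SE 0.061, 95% interval -1.49 to -1.23, adjusted p = 1.7e-10, edgeR). The member with the next lowest interval was Actn1, whose lower bound was -0.48.

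Tpm1, the gene of alpha-tropomyosin, whose many transcripts serve striated muscle, smooth muscle and non-muscle cells, was lower by a smaller amount. It was read at 961, 1042, 971 and 961 CPM with GFP and at 791, 811, 747 and 811 CPM with OEIRF7. GFP library 2 stood above the other GFP libraries and OEIRF7 library 3 below its own group, yet the groups remained separate. The log2 fold change was -0.32 (SE 0.035, adjusted p = 2.4e-06, edgeR), and -0.29 without GFP library 2.

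Tpm4, a non-muscle tropomyosin of stress fibres and the most abundant member per length, fell with little spread. Its 4 GFP libraries held 1241, 1252, 1290.1 and 1270.2 CPM, and its 4 OEIRF7 libraries 939, 952, 977 and 963 CPM. The lowest GFP library was thus well above the highest OEIRF7 library. The log2 fold change was -0.40 (SE 0.026, adjusted p = 8.4e-09, edgeR), and the level fell by 24.2%. In the GENCODE M21 annotation 9.36% of the 100-base windows of its longest coding transcript also occur in other genes, mostly in Gm7809. Reads shared in this way could have been discarded in counting. Gene models Gm26586 and Gm16091 also lie over the locus on the opposite strand.

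Tpm3, the gene of gamma-tropomyosin, widely used in non-muscle cells, was the exception among the 9. Its values were 489.5, 488, 496 and 499.6 CPM with GFP and 499, 500.3, 488 and 497 CPM with OEIRF7, and the groups overlapped fully. The log2 fold change was 0.01 (95% interval -0.05 to 0.07, adjusted p = 0.83, edgeR, and p = 0.57 by exact permutation of the libraries, two-sided), so that even the lower bound of its interval is above the upper bound of every other member's. In the GENCODE M21 annotation 45.7% of the 100-base windows of its longest coding transcript also occur in the retrogene Tpm3-rs7, which itself held 15 to 35 reads per library, so reads shared by the pair could have been discarded in counting and the level of Tpm3, more than its change, is uncertain.

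On the FPKM scale, which corrects for length and therefore allows levels of different genes to be added, the 4 tropomyosin genes summed to 1397 ± 23.6 with GFP and 1135 ± 19.4 with OEIRF7 (SD, n = 4 each), so the mean fell by 18.7%. The makeup of the sum moved as well. Tpm2 supplied 4.96 ± 0.145% of it with GFP and 2.43 ± 0.244% with OEIRF7, and Tpm3 15.8 ± 0.362% and 19.9 ± 0.211%, neither gene overlapping between groups. The shares of Tpm1 (37.7 ± 1.10% and 38.3 ± 1.09%) and Tpm4 (41.5 ± 0.750% and 39.5 ± 0.923%) overlapped. These shares are given as a description without a test, and since reads were counted per gene they do not separate the muscle-type and short non-muscle isoforms of Tpm1, for which 21 transcripts are annotated, or of Tpm3, with 16.

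**Figure D2:**
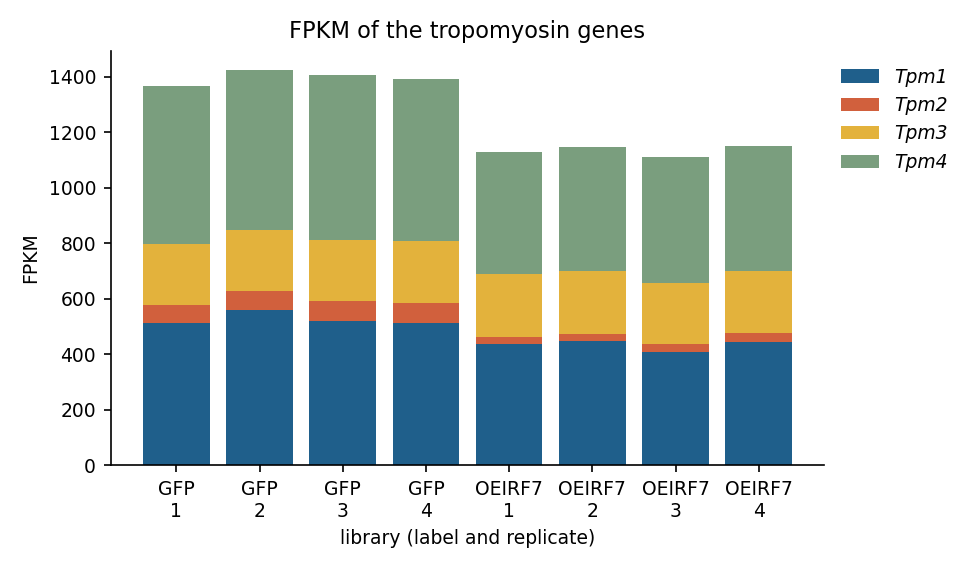
FPKM of Tpm1, Tpm2, Tpm3 and Tpm4 stacked for each of the 4 GFP and 4 OEIRF7 libraries, the height of a bar being the summed FPKM. The sum lies between 1368 and 1423 with GFP and between 1110 and 1152 with OEIRF7, and the Tpm2 band narrows while the Tpm3 band keeps its height.

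Both non-muscle alpha-actinins, the cross-linkers of actin filaments, fell to a like degree. Actn1 was at 1143, 1120.0, 1134 and 1199 CPM in the GFP libraries and at 845, 873, 826 and 921 CPM in the OEIRF7 libraries. Actn4 was at 622, 598, 611 and 636 CPM and at 456, 461, 479 and 493 CPM in the same order. For each gene all OEIRF7 libraries were under all GFP libraries. The log2 fold changes were -0.41 for Actn1 (SE 0.036, adjusted p = 1.8e-07, edgeR) and -0.39 for Actn4 (SE 0.033, adjusted p = 1.5e-07, edgeR). Per length, the pair summed to 520 ± 11.6 FPKM with GFP and 401 ± 17.4 FPKM with OEIRF7 (SD, n = 4 each), and Actn1 supplied 68.1 ± 0.809% and 67.9 ± 0.954% of the sum, ranges that overlapped. The muscle alpha-actinins were nearly silent, Actn2 with at most 3 reads in a library and Actn3 with 9 to 23 reads (log2 fold change -0.12, adjusted p = 0.81, edgeR). Gene models overlap at both loci, antisense Gm47766 sharing 7.26% of the windows of Actn1 and Capn12 5.74% of those of Actn4, but Capn12 held no more than 1 read in any library and the setting for strand in the counting is not stated.

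Flna, which encodes filamin A, a large cross-linker that anchors the actin network to integrins, had the most reads of the 9. It stood at 2211, 2186, 2211 and 2279 CPM with GFP and 1768, 1806, 1803 and 1871 CPM with OEIRF7, without overlap. Its log2 fold change was -0.29 (SE 0.026, adjusted p = 2.0e-07, edgeR), and its level fell by 18.4%. Flnc, its paralog of striated muscle, went the other way, from 212 ± 10.7 to 338 ± 14.7 CPM (log2 fold change 0.67, SE 0.042, adjusted p = 5.2e-09, edgeR), and every OEIRF7 library was above every GFP library. Set beside each other per length, Flna was at 265 ± 4.76 and 220 ± 5.37 FPKM and Flnc at 23.3 ± 1.13 and 37.8 ± 1.54 FPKM (GFP and OEIRF7, SD, n = 4 each).

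Palld encodes palladin, a scaffold at dense bodies and focal adhesions that binds alpha-actinin, and it changed least among the genes that were called. Its levels were 136, 134, 131 and 134 CPM with GFP and 118, 119, 125 and 118 CPM with OEIRF7. The groups were separate, but the highest OEIRF7 library lay close under the lowest GFP library. The log2 fold change was -0.15 (SE 0.033, 95% interval -0.23 to -0.08, adjusted p = 0.0011, edgeR), and the level fell by 10.1%. Its muscle relatives Mypn and Myot held at most 2 and 6 reads in a library and could not be tested.

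Pdlim7, also called enigma, carries a PDZ domain that binds tropomyosin and LIM domains that bind signalling proteins. It was read at 85.1, 83.2, 79.2 and 79.2 CPM with GFP and at 65.5, 63.7, 65.2 and 65.0 CPM with OEIRF7. The OEIRF7 libraries were nearly level with each other and all under the GFP libraries. The log2 fold change was -0.33 (SE 0.037, adjusted p = 2.3e-06, edgeR). Within the same family the paralogs spread widely: Pdlim3, the actinin-associated LIM protein of muscle, fell from 18.3 ± 2.32 to 7.51 ± 0.888 CPM (log2 fold change -1.29, SE 0.10, adjusted p = 7.7e-08, edgeR), and Pdlim2 went from 77.1 ± 7.74 to 63.7 ± 4.09 CPM with groups that overlapped (-0.28, adjusted p = 0.0022, edgeR, but adjusted p up to 0.12 with limma on FPKM). Pdlim5 had a log2 fold change of 0.00 (SE 0.031).

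Over the 12 paralogs of the members, 9 were tested, of which 3 rose, 3 fell and 3 were not called, with a median log2 fold change of 0.00. These shares, 33.3% in each direction, were close to the 29% higher and 29.9% lower over all tested genes.

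**Figure D3:**
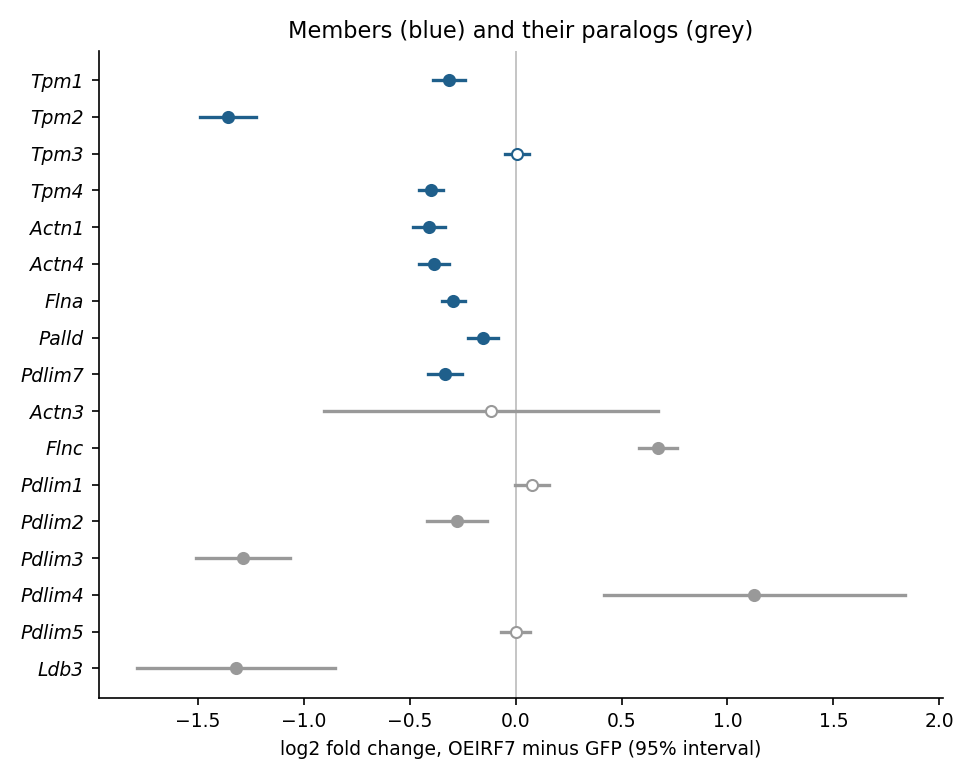
Log2 fold change, OEIRF7 minus GFP, of the 9 members (blue) and of tested paralogs (grey), with 95% intervals from the edgeR fit over 8 libraries. Filled points have an adjusted p under 0.05. Members other than Tpm3 lie left of 0 and most within -0.15 to -0.41, whereas the paralogs lie on both sides, from -1.32 (Ldb3) to 1.13 (Pdlim4), both of these with few reads.

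The levels of the 9 genes per length spanned more than an order of magnitude, and each was among the top 19.3% of tested genes by FPKM. In GFP libraries the order was Tpm4 (580 ± 10.3 FPKM), Tpm1 (527 ± 21.9), Actn1 (355 ± 12.0), Flna (265 ± 4.76), Tpm3 (221 ± 2.77), Actn4 (166 ± 1.46), Tpm2 (69.4 ± 2.60), Pdlim7 (51.9 ± 1.90) and Palld (31.6 ± 0.635 FPKM; SD, n = 4), and no neighbours in this order overlapped. With OEIRF7 it became Tpm4 (448 ± 5.17 FPKM), Tpm1 (435 ± 19.2), Actn1 (272 ± 15.3), Tpm3 (225 ± 3.54), Flna (220 ± 5.37), Actn4 (129 ± 2.89), Pdlim7 (42.3 ± 1.02), Palld (28.7 ± 0.722) and Tpm2 (27.6 ± 2.64 FPKM). There Tpm4 and Tpm1, Tpm3 and Flna, and Palld and Tpm2 each overlapped as neighbours. Tpm2 thus went from above Pdlim7 and Palld to the lowest place, which it shared with Palld within the spread.

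The rest of the stress fibre machinery was examined in lists of 63 companion genes, 59 of them tested, of which 38 were lower (64.4%, against 29.9% of all tested genes), 13 higher (against 29% of all tested genes) and 8 not called. Their median log2 fold change was -0.23, against 0.00 over all tested genes, and the same shares over all tested genes are the measure for each list that follows. The lists did not behave alike. Of the actins, 4 of 5 tested were lower and 0 higher. Acta2, smooth muscle alpha-actin, the usual marker of myofibroblast stress fibres, fell from 2061 ± 74.3 to 581 ± 46.1 CPM (log2 fold change -1.83, SE 0.048). Actb, the ubiquitous beta-actin, was only slightly lower, from 1966 ± 47.6 to 1829 ± 53.9 CPM (-0.10, SE 0.028, adjusted p = 0.0055, edgeR, and up to 0.18 with limma on FPKM). Of myosin II and its kinase and phosphatase, which provide and control the pull on the filaments, 9 of 10 were lower and 0 higher, with a median of -0.50. The regulatory light chains Myl9 and Myl12b fell most, from 137 ± 10.6 to 24.4 ± 2.91 CPM (-2.49, SE 0.074) and from 109 ± 9.40 to 51.0 ± 2.31 CPM (-1.09, SE 0.057). The falls of Acta2, Myl9 and Myl12b were larger than those of 9, 9 and 8 of the 9 members.

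Among 21 other actin-binding proteins of stress fibres 15 were lower and 4 higher (median -0.37). Limch1, an activator of non-muscle myosin, fell from 43.0 ± 3.28 to 14.7 ± 1.11 CPM (log2 fold change -1.55, SE 0.069) and Synpo2, a synaptopodin relative that binds alpha-actinin, from 42.5 ± 7.69 to 15.4 ± 3.15 CPM (-1.47, SE 0.14). In the opposite direction, Tmod1, which caps the slow-growing end of the filament on tropomyosin, rose from 3.41 ± 0.506 to 9.56 ± 1.18 CPM (1.49, SE 0.13), and Tagln2, a transgelin of non-muscle cells, rose from 452 ± 13.1 to 624 ± 16.3 CPM (0.46, SE 0.032). All 4 had groups that did not overlap.

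**Figure D4:**
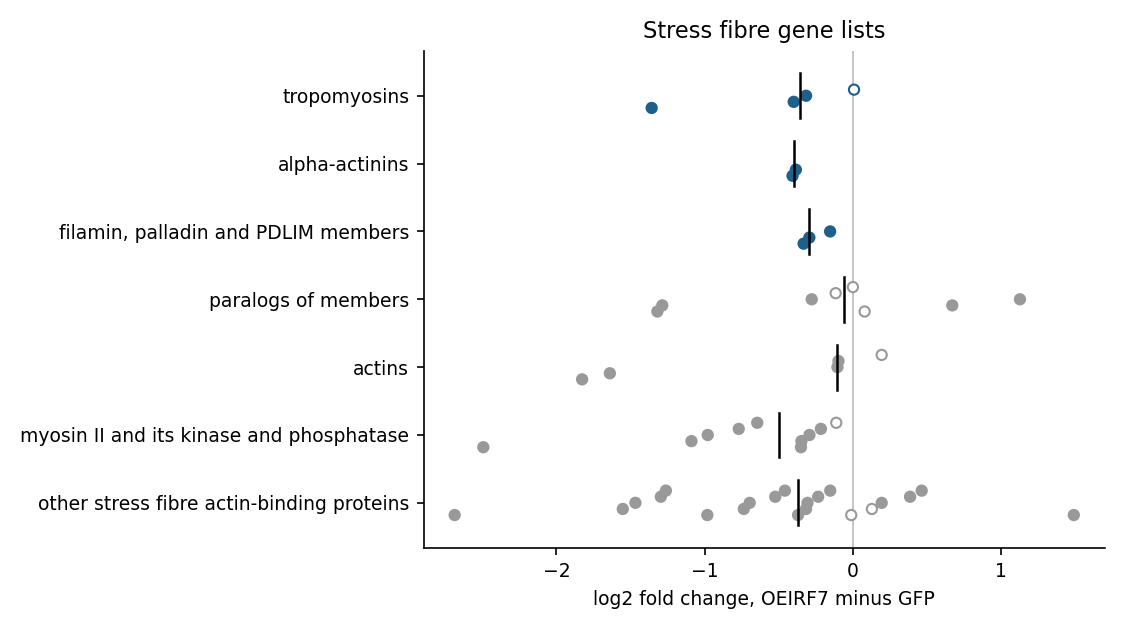
Log2 fold change, OEIRF7 minus GFP, of the members (blue, top 3 lines) and of companion genes (grey) by list, with filled points at an adjusted p under 0.05 (edgeR), open points not called and a black bar at the median of the points. The myosin list lies wholly below 0 with a median of -0.50, while the paralogs lie on both sides.

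The companion lists were drawn up with earlier results of these data known, so a list from outside was set beside them. Of the genes that the deposited table annotates with the Gene Ontology term stress fiber, leaving out the members, 69 were tested. Of these 31 were lower and 17 higher (44.9% and 24.6%), with a median log2 fold change of -0.05. The shares over all tested genes were 29.9% and 29%. Once the 25 that are also companion genes were left out of the 75 listed, 44 tested genes remained. Of these 13 were lower and 15 higher (29.5% and 34.1%, median 0.03), close to the shares over all tested genes. The genes left out had been chosen with earlier results known, so the remainder also depends on that choice and is not an independent list. Under this term, Myl9, Acta2 and Limch1 were the largest falls. Among the 3 largest rises were Xirp2, a Xin-repeat protein that binds filaments, which had 0 to 12 reads with GFP and 765 to 1261 with OEIRF7, and Ror1, a receptor kinase, from 23.4 ± 1.51 to 36.6 ± 1.51 CPM (0.65, SE 0.057). The term itself was attached to 7 of the 9 members, not to Tpm2 and Flna, whereas actin binding was attached to all 9.

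Finally, the genes whose levels ran closest to those of Tpm2 and Tpm3, the members at either end of the range of fold changes, were sought by the root mean square difference of log2 CPM, centred on each gene's mean, over the 8 libraries and 10320 genes with a mean above 5 CPM. Closest to Tpm2 were Atf6b (0.085), Slc1a3 (0.089) and Nkain3 (0.096), which encode a stress-regulated transcription factor, a glutamate transporter and a membrane protein that interacts with the sodium pump. Their own log2 fold changes were -1.25, -1.34 and -1.45. Closest to Tpm3 were Ctsa, a lysosomal protease (0.018), Rac1, the GTPase of membrane ruffles (0.018), and Arl14ep (0.019), all with log2 fold changes between -0.01 and 0.02. With 8 libraries in 2 groups, such likeness mainly reflects a similar difference between the groups.

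In the GRCm38 assembly with GENCODE M21 the members lie on 8 chromosomes, Tpm1 at chr9:67022590-67049406, Tpm2 at chr4:43514711-43523765, Tpm3 at chr3:90072649-90100902, Tpm4 at chr8:72134975-72153142, Actn1 at chr12:80167547-80260371, Actn4 at chr7:28893248-28962340, Flna at chrX:74223461-74249820, Palld at chr8:61511433-61902690 and Pdlim7 at chr13:55495795-55513676. Tpm4 and Palld share chromosome 8 at distant positions. The plus strand carries Tpm3 and Tpm4 and the minus strand the other 7.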

How the data were processed

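Polyadenylated RNA of 8 libraries was sequenced in pairs of reads. According to the study's methods, the authors trimmed reads with Trimmomatic, mapped them with HISAT2 to the mouse genome GRCm38 and deposited raw counts per gene from HTSeq-count. FPKM values, in which Cufflinks adjusts for transcript length and sequencing depth, were deposited beside them. Tool versions and the strand setting of the counting are not given in the sources used here, and the kits named by the labels and by the methods are not the same. The deposited group means, fold changes and p-values are the authors' own comparison and were not used. In the deposited symbols the letters nc had been replaced by GFP in 121 genes, which were restored by Ensembl identifier.

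Counts were tested in R 4.3.3 with edgeR 4.0.16 (TMM, filterByExpr, glmQLFit and glmQLFTest, no covariates, Benjamini-Hochberg over 13533 genes) in place of the study's DESeq. Libraries were also permuted exactly on log2 CPM (prior count 2, two-sided); with 4 against 4 its smallest p is 0.0286, which 8 members reached. Depth was 24454801 to 28658826 counts per library, with TMM factors from 0.989 to 1.01. Members and lists were chosen with earlier results of these data known. Named companion genes are, per list, the 2 largest rises and the 2 largest falls at an adjusted p under 0.05 and a mean above 5 CPM; of the stress fiber term, the 3 largest of each. Pdlim4, Pdlim5, Ldb3 and Actn3 were named with their values in view. Some companion genes that enter the totals are not reported here. The alternatives tried were DESeq2 1.42.0, library size alone, upper-quartile scaling, minimums of 1 count in total or 10 in every library, a replicate block, each library left out, and limma 3.58.1 on log2(FPKM + 1) or log2(FPKM + 0.1), keeping genes whose mean FPKM exceeded 0.1 or, with the pseudocount of 1, without this minimum. Data were also simulated for 4 against 4 libraries (13464 genes), with a common dispersion for all genes and 200 randomly drawn genes changed. There edgeR recovered 31 of 50 genes lowered to 0.769-fold and 47 of 50 lowered to 0.5-fold. As the changed genes were drawn from all expression levels, these rates do not describe the members.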

Additional observations from a re-analysis of the deposited data

Results flagged for a closer look

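Among 28 groups of 4 libraries examined for a value far from the other 3, 3 stood out, and chance gives about 1 in 20. Tpm1 in GFP library 2 was at 1042 CPM, while the other GFP libraries were at 961 to 971 CPM. In OEIRF7 library 3, Tpm1 supplied 36.6% of the tropomyosin FPKM, against at least 38.6% in each other OEIRF7 library, and Tpm4 supplied 40.8%, against 38.9% to 39.1%. These shares come from the same sum and are not independent of each other.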

How the results depend on the processing

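In 17 alternatives, 8 members were lower, 0 were higher and 1 was past the size rule each time, and each of the 8 kept its direction and call. Leave-one-out fits gave log2 fold changes from -1.40 to -1.31 for Tpm2, -0.17 to -0.14 for Palld and 0.00 to 0.02 for Tpm3. Companion genes called lower numbered 30 to 38 and higher 12 to 14, and those of the stress fiber term 23 to 32 and 14 to 19. Actb and Pdlim2 lost their calls in the 3 limma fits on FPKM; the cause was not tested. The log2 fold change of Xirp2 ranged from 2.73 to 8.64. With counts in place of FPKM, which leaves length in, the shares became 34.8% and 34.7% for Tpm1 (GFP and OEIRF7), 2.96% and 1.44% for Tpm2, 17.5% and 21.8% for Tpm3, 44.7% and 42.1% for Tpm4, and 65.1% and 64.7% for Actn1.

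Libraries of the same number correlated at 0.079, 0.095, 0.138 and 0.104 in their deviations from the group means, each best with its own number, which is a hint from the data and not from the design. With the number as a replicate block 8211 genes were called in place of 7969, again with 8 members lower and 0 higher, and the counts of companion genes and of the stress fiber term stayed within 1.5 times their values.

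Counts per gene cannot separate tropomyosin isoforms, and genes with few reads, such as Actn3 and Pdlim4, were measured imprecisely.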
